A study of Mus musculus with 4 samples.

Results

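The BCL2 family genes that hold CD8 T cells alive or drive them into apoptosis were compared between CD8αβ+ intraepithelial lymphocytes (IELs) of the mouse small intestine and CD8αβ+ splenocytes (SPLs). The 10 genes were chosen by name. They were the anti-apoptotic Bcl2, Bcl2l1 and Mcl1, the effectors Bax and Bak1, and the BH3-only genes Bcl2l11, Bid, Bad, Bbc3 and Pmaip1. Every probe that the arrays' annotation assigned to one of them was taken, which gave 19 of the 41174 probes that are not controls. All 19 were well above background on all 4 arrays and all were among the 27937 probes tested.

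Total RNA was measured on 1-color Agilent whole mouse genome arrays, 1 array per sample, with 2 samples of CD8αβ+ IELs and 2 samples of CD8αβ+ SPLs. Both groups came from male wild-type mice aged 8 to 12 weeks, IELs from the epithelium of the small intestine and SPLs from the spleen. Each sample was sorted from a pool of mice as CD45+ CD3+ CD8α+ CD8β+ TCRβ+ cells, so the animals' own spread is not seen and the tests measure the spread between these pooled samples. Slide 1 carried IEL replicate 1 and SPL replicate 2, and slide 2 carried IEL replicate 2 and SPL replicate 1.

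Proteins of this family meet at the outer membrane of the mitochondrion. Bcl-2, Bcl-xL (from Bcl2l1) and Mcl-1 hold back Bax and Bak, which otherwise oligomerize into pores that let cytochrome c escape and start the caspase cascade. BH3-only proteins carry stress signals to this switch by occupying the groove of the anti-apoptotic proteins or by engaging Bax and Bak directly. In CD8 T cells, interleukin 7 and interleukin 15 are known to sustain Bcl-2 and Mcl-1, and Bim (from Bcl2l11) removes T cells once these signals fade.

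The probes are 60 bases long. Chosen probes that lie in coding sequence are shown to make plain which piece of their transcripts was read. Positions are those of the arrays' annotation on mm9. The other probes were not sorted into coding and noncoding. Capitals in the Bcl2 and Bak1 probes mark the 24 bases that encode the same part of the BH1 region, and those in the Bcl2l11 probe mark the 15 bases that encode the core of the BH3 domain. Nothing is capitalized in the Bcl2l1 and Bax probes.
Bcl2 A_51_P380013 (chr1:108608970-108609029, minus strand): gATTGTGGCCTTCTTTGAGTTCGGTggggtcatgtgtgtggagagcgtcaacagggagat
Bak1 A_52_P225207 (chr17:27158232-27158291, minus strand): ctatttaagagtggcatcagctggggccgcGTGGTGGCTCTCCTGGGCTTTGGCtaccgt
Bcl2l1 A_52_P510877 (chr2:152655185-152655244, minus strand): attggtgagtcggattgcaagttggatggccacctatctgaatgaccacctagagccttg
Bax A_51_P254541 (chr7:52721469-52721624, minus strand): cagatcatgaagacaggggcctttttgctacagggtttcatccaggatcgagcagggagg
Bcl2l11 A_51_P484880 (chr2:127972893-127983988, plus strand): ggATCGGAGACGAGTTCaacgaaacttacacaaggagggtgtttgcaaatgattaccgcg
The Bax probe is spread over 156 bases of the genome and the Bcl2l11 probe over 11096 bases, so both cross an exon junction.

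By its correlations, IEL replicate 2 stood apart from its label. Over 27912 probes, IEL replicate 2 correlated with SPL replicate 1 on the same slide at r = 0.992 and with IEL replicate 1 at r = 0.946, while the SPL replicates correlated at r = 0.986 and the arrays of slide 1 at r = 0.911. Across all tested probes the median absolute log2 difference between IEL and SPL was 0.511 on slide 1 and 0.169 on slide 2. Values are therefore given for each array, for each slide, and with and without IEL replicate 2. Levels are log2 processed intensities minus the array's 75th percentile, and a level serves to compare arrays on 1 probe only.

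Marker genes split the same arrays. The summed level of 9 CD8 T cell markers, in multiples of the 75th percentile, was 666 and 730 in IEL replicates 1 and 2 and 732 and 726 in SPL replicates 1 and 2. In the same order, 12 epithelial markers summed to 34.5, 8.35, 4.47 and 2.38, and 10 Paneth and goblet cell markers to 562, 26.9, 17.0 and 10.2. B cell markers (6) summed to 3.61, 20.3, 26.0 and 19.8, myeloid markers (9) to 47.8, 69.5, 84.0 and 88.6, and erythroid markers (6) to 1.16, 75.8, 100.1 and 116.7. Lyz2, at log2 levels of 5.56, 4.81, 5.02 and 5.21, made up most of the myeloid sum in IEL replicate 1 only. On the other arrays S100a9 was a larger term than Lyz2, at 4.87, 5.15 and 5.29, against -4.17 in IEL replicate 1. On slide 1, 8 of the 9 myeloid markers were at least 2-fold lower in the IEL array. IEL replicate 1 thus had the highest levels of Paneth and most epithelial markers and the lowest of B cell, erythroid and most myeloid markers. The epithelial markers Apoa1 and Apoa4 were highest in IEL replicate 2. The SPL arrays also differed. Of the epithelial, Paneth and goblet markers, only Apoa4 and Lyz1 were lower in SPL replicate 1 than in SPL replicate 2. Krt8 read -1.99 and -4.64 in SPL replicates 1 and 2, and Cdh1 read -0.57 and -4.18. SPL replicate 1 stays in the fits without IEL replicate 2, and its part in them was not tested. All 12 epithelial markers and 9 of the 10 Paneth and goblet markers were higher on both IEL arrays, beside 24.4% of all tested probes. All 6 erythroid markers, 3 of the 9 myeloid markers and 1 of the 6 B cell markers were lower on both, beside 24.5%. Defining genes were well above background on all 4 arrays, with Epcam at -1.34, -3.41, -3.82 and -4.13, Defa1 at 7.49, 1.66, 0.19 and -5.04, and Cd22 at -4.72, -0.45, -0.13 and -0.59 (log2 levels). The part of these other cells in the values of the BCL2 family was not tested. In RNA from sorted pools, fewer cells of a type cannot be told apart from less RNA per cell.

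Across the 19 probes, 5 were higher on both IEL arrays than on both SPL arrays (26.3%, against 24.4% of all tested probes) and 7 were lower (36.8%, against 24.5%). The other 7 overlapped between the groups. The 5 were both single-spot probes of Bcl2l1 and the probes Bak1 A_52_P225207, Bad A_51_P419364 and Pmaip1 A_51_P477121, and the 7 were Mcl1 A_51_P238786, Bax, Bcl2l11 A_52_P158527 and A_52_P348214, Bid, Bad A_52_P614762 and Bbc3. Across 8 settings (as reported, other scalings, background corrections, the authors' table, and outlier spots kept), the first count ran from 2 to 5 and the second from 3 to 9, while the shares of all tested probes ran from 17.3% to 25.0% and from 23.3% to 31.5%. Pmaip1 and Bak1 A_52_P225207 lay above, and Bbc3, Bax and Bad A_52_P614762 below, in all 8.

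With all arrays, limma called 0 of the 19 probes at an adjusted p of 0.05 in either direction, and 0% of all tested probes. The smallest adjusted p of any probe was 0.634. At an unadjusted p of 0.05, limma also called 0 of the 19, against 4.64% of all tested probes higher and 1.10% lower. Exact permutation of 2 against 2 arrays cannot go below a two-sided p of 0.333.

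**Figure D1:**
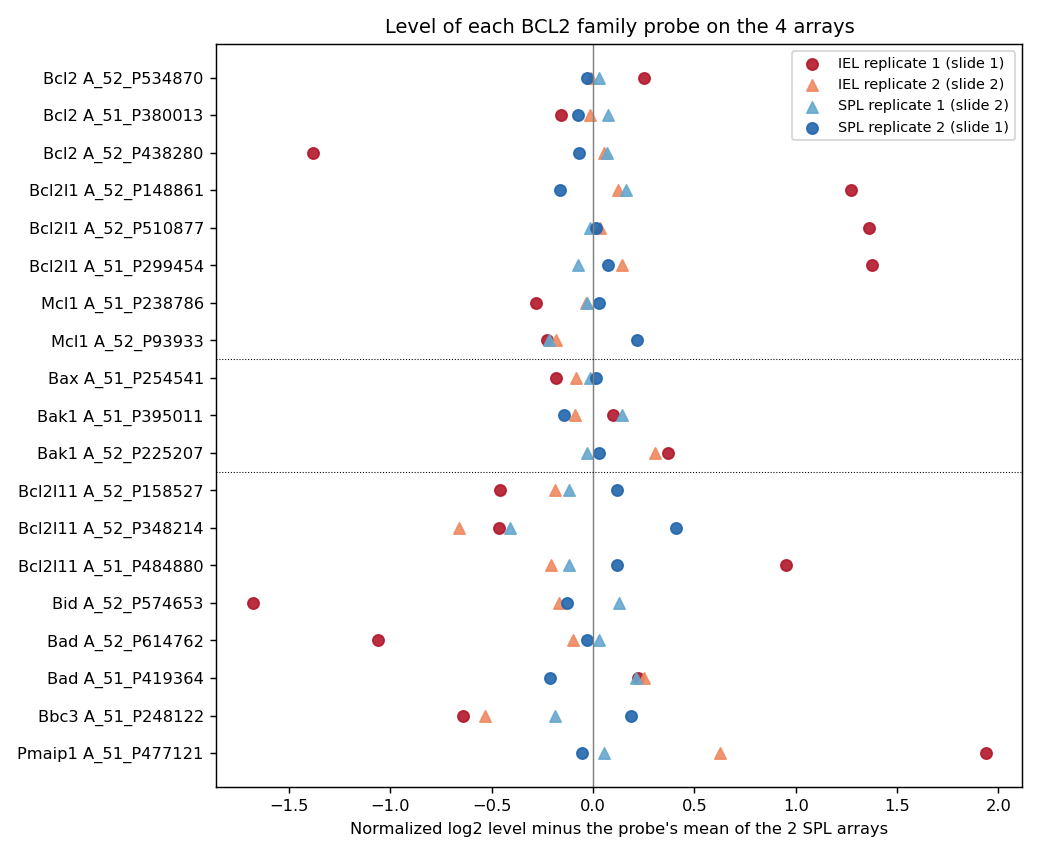
Log2 level of each of the 19 probes on the 4 arrays, minus that probe's mean of both SPL arrays (horizontal axis, log2 units), with circles for slide 1 and triangles for slide 2, and dotted lines between anti-apoptotic genes, effectors and BH3-only genes. IEL replicate 1 stood farthest from the SPL arrays on the probes of Bcl2l1, Bid and Pmaip1, on Bcl2 A_52_P438280 and on Bad A_52_P614762, and on each of these IEL replicate 2 lay closer to the SPL arrays.

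Of the anti-apoptotic genes, Bcl2l1 was higher in IEL replicate 1 on every probe, the Bcl2 probes differed among themselves, and the Mcl1 probes differed little. Bcl2l1 encodes Bcl-xL, the form that activated cells use alongside Bcl-2. On the probe with 10 spots, A_52_P148861, its level was 0.30 and -0.85 in IEL replicates 1 and 2, and -0.81 and -1.13 in SPL replicates 1 and 2. The 10 spots varied by 3.24% to 5.94% (coefficient of variation) within an array. IEL replicate 2 lay between the SPL arrays. Probe A_52_P510877, printed above, read -2.02, -3.34, -3.39 and -3.36 in the same order, and probe A_51_P299454 read -2.43, -3.66, -3.88 and -3.73. On both of these the IEL arrays lay above the SPL arrays, by a small margin for IEL replicate 2.

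The log2 differences of the Bcl2l1 probes were 0.70 ± 0.46 (SE), 0.70 ± 0.50 and 0.76 ± 0.48 in the order given (limma adjusted p = 0.634, 0.639 and 0.634, n = 2 against 2). On slide 1 the IEL array was 2.71-fold, 2.55-fold and 2.47-fold higher. On slide 2 the same ratios were 0.972, 1.03 and 1.16. With normexp background correction the log2 differences were 0.35, 0.11 and 0.12, and the groups overlapped on the single-spot probes in 5 of those 8 settings. Without IEL replicate 2 all of these probes passed, at log2 differences of 1.27, 1.36 and 1.38 (limma adjusted p = 0.038, 0.024 and 0.025). That fit rests on 1 IEL array, which is taken to vary as the SPL arrays do.

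Bcl2, the founding survival gene of the family, was measured on 3 probes that disagreed. Each is annotated to a different transcript record, and whether they read the same transcript was not tested. Its brightest probe, A_52_P534870, read 3.63 and 3.37 in the IELs and 3.41 and 3.35 in the SPLs, a log2 difference of 0.12 ± 0.24 (limma adjusted p = 0.846). Coding probe A_51_P380013 read 2.64, 2.78, 2.87 and 2.72, a difference of -0.09 ± 0.23 (limma adjusted p = 0.891). On both, the groups overlapped and both slides stayed below 1.22-fold. The third probe, A_52_P438280, read -0.48, 0.96, 0.97 and 0.83. There only IEL replicate 1 was low, by 2.48-fold on slide 1, with a slide 2 difference of -0.01. Without IEL replicate 2 this probe passed as lower at -1.38 (limma adjusted p = 0.025), and the other 2 did not (limma adjusted p = 0.497 and 0.679).

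Mcl1, a short-lived survival protein that T cells need throughout life, had the levels 5.25, 5.50, 5.51 and 5.56 on A_51_P238786 in IEL replicates 1 and 2 and SPL replicates 1 and 2. Probe A_52_P93933 read 4.02, 4.07, 4.03 and 4.47. The log2 differences were -0.16 ± 0.24 and -0.20 ± 0.27 (limma adjusted p = 0.796 and 0.765). On the second probe SPL replicate 2 alone was higher than the rest, and on the first the IEL arrays lay below the SPL arrays by as little as 0.01 on slide 2. Neither probe passed with any array left out, and the second turned to 0.01 without SPL replicate 2.

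**Figure D2:**
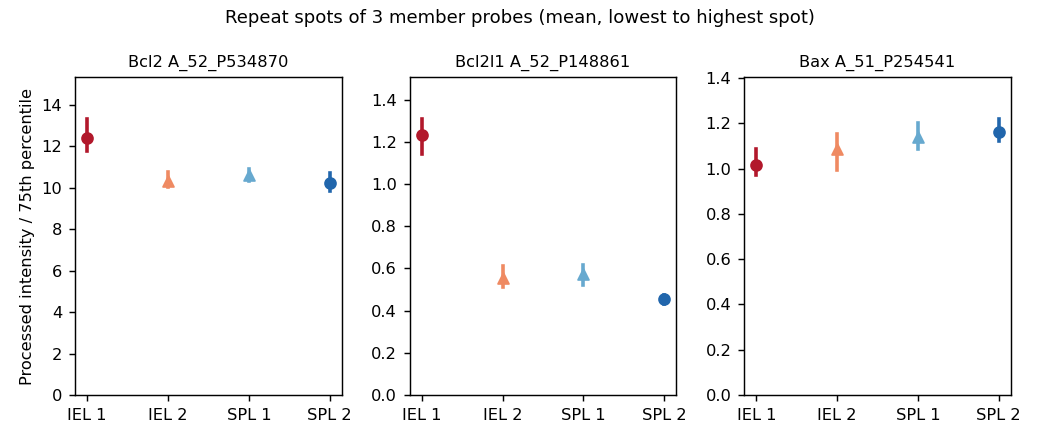
Processed intensity divided by the array's 75th percentile (vertical axis, linear, from 0) for the member probes with 10 spots, with the mean as a point and the lowest to highest unflagged spot as a line. The Bcl2l1 spots of IEL replicate 1 lay above those of all other arrays, the Bcl2 spots did so by a smaller margin, and the means of the Bax spots lay closest together.

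The effectors differed little. Bax, which moves from the cytosol to the mitochondrion when apoptosis starts, read 0.02 and 0.12 in the IELs and 0.19 and 0.22 in the SPLs. Both IEL arrays were below both SPL arrays, with a log2 difference of -0.13 ± 0.23 (limma adjusted p = 0.817). The SPL array was 1.14-fold higher on slide 1 and 1.05-fold higher on slide 2, and the repeat spots within an array varied by 3.12% to 5.41%. Bak1 encodes Bak, which sits in the mitochondrial membrane from the start. Its brighter probe, A_51_P395011, read 1.28, 1.09, 1.32 and 1.04 in IEL replicates 1 and 2 and SPL replicates 1 and 2, with the groups overlapping and the slides opposed (0.24 and -0.23). That difference of 0.00 ± 0.25 (limma adjusted p = 0.996) changed sign with the scaling.

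The coding probe Bak1 A_52_P225207 differed by 0.34 on slide 1 and by 0.34 on slide 2. Its levels were -0.19, -0.25, -0.59 and -0.53, so the IEL arrays were 1.26-fold higher with little spread within a group (SD 0.04 in each). The log2 difference of 0.34 ± 0.22 did not pass (limma adjusted p = 0.634), nor did it without IEL replicate 2 (0.37, limma adjusted p = 0.330) or without IEL replicate 1 (0.31, limma adjusted p = 0.925). The other Bak1 probe did not share this pattern.

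Among the BH3-only genes, Pmaip1 had the highest log2 difference and Bid the lowest with all arrays, although on slide 2 Bbc3 (-0.35) was below Bid (-0.30). Pmaip1 encodes Noxa, a p53 target that occupies Mcl-1 and speeds its loss. Its level was 4.30 and 2.99 in IEL replicates 1 and 2, against 2.42 and 2.31 in SPL replicates 1 and 2. Both IEL arrays were above both SPL arrays. The log2 difference was 1.28 ± 0.50, a 2.43-fold higher level in the IELs (unadjusted p = 0.057 and adjusted p = 0.634, both from limma). On slide 1 the ratio was 3.97 and on slide 2 it was 1.49, the largest slide 2 difference of the 19 probes (log2 0.57, against a 95th percentile of 0.74 over all tested probes). The difference passed without IEL replicate 2 (1.94, limma adjusted p = 0.012) and not without IEL replicate 1 (0.62, limma adjusted p = 0.721).

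Bid, which caspase-8 cleaves to link death receptors to the mitochondrion, read -0.13 and 1.38 in the IELs and 1.68 and 1.41 in the SPLs. IEL replicate 1 was far below the others, and IEL replicate 2 was just below SPL replicate 2. The log2 difference was -0.92 ± 0.57 (limma adjusted p = 0.634), with the SPL array 2.92-fold higher on slide 1 and 1.23-fold higher on slide 2. Without IEL replicate 2 it passed at -1.68 (limma adjusted p = 0.019), and without IEL replicate 1 it was -0.17 (limma adjusted p = 0.973).

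Bbc3 encodes Puma, which binds every anti-apoptotic member. Its level was 2.38 and 2.49 in the IELs and 2.84 and 3.21 in the SPLs, with less spread between the IEL arrays than between the SPL arrays and no overlap. The IEL level was 0.665 times that of the SPLs, a log2 difference of -0.59 ± 0.26 (unadjusted p = 0.080 and adjusted p = 0.634, both from limma). The difference was -0.83 on slide 1 and -0.35 on slide 2, in the same direction on both, and it was -0.64 without IEL replicate 2 and -0.53 without IEL replicate 1 (limma adjusted p = 0.178 and 0.798).

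Bcl2l11, the gene of Bim, was read by 3 probes that differed in direction. Its brightest probe, A_52_P158527, read 1.94, 2.21, 2.28 and 2.52 in IEL replicates 1 and 2 and SPL replicates 1 and 2, a log2 difference of -0.32 ± 0.25 (limma adjusted p = 0.654). Probe A_52_P348214, which is spread over 682 bases of the genome, read -1.53, -1.72, -1.47 and -0.65, a difference of -0.56 ± 0.36 (limma adjusted p = 0.634). On both, the IEL arrays lay below the SPL arrays, and on the second SPL replicate 2 stood well above SPL replicate 1. The printed probe with the BH3 core, A_51_P484880, read -0.997, -2.16, -2.07 and -1.83. Here IEL replicate 1 was the highest array and IEL replicate 2 the lowest, with a difference of 0.37 ± 0.46 (limma adjusted p = 0.751). Without IEL replicate 2 the difference on A_51_P484880 was 0.95, against -0.21 without IEL replicate 1.

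Bad, which survival kinases such as Akt keep inactive by phosphorylation, was dim, at 12.8 to 50.7 processed units. Probe A_51_P419364 lies on the plus strand of chromosome 19, as the promoter windows of Bad do, and read -4.10, -4.07, -4.11 and -4.53. The IEL arrays were above the SPL arrays there, by 0.24 ± 0.27 on the log2 scale (limma adjusted p = 0.730). Probe A_52_P614762 carries the same gene name but is mapped to the minus strand, and read -4.61, -3.64, -3.52 and -3.58. Its difference was -0.58 ± 0.40 (limma adjusted p = 0.636), it was -0.09 and -0.25 in the 2 normexp fits, and it passed without IEL replicate 2 at -1.06 (limma adjusted p = 0.043). Because of the strand, it is uncertain whether this probe reads Bad, although as the brighter one it stands for the gene wherever genes are counted.

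**Figure D3:**
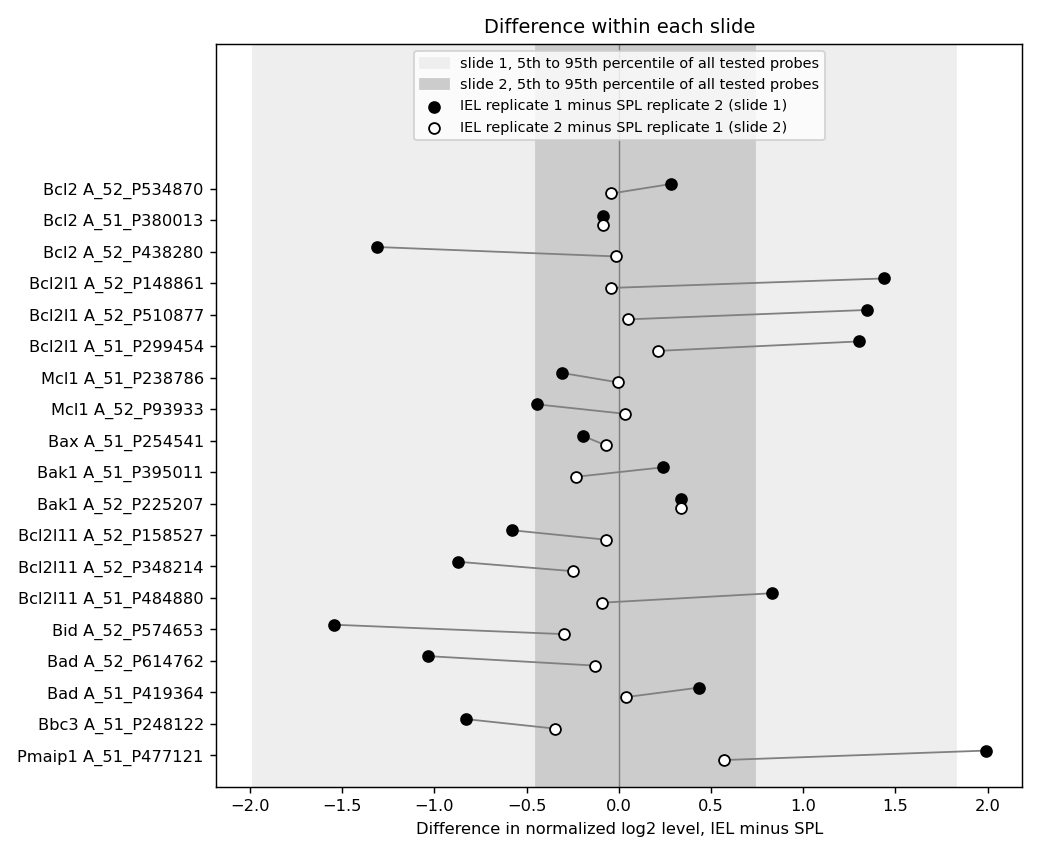
Log2 difference between the IEL and the SPL array of the same slide for each probe (horizontal axis), with filled circles for slide 1, open circles for slide 2, and grey bands for the 5th to 95th percentile of all tested probes. The slide 1 differences ran from -1.55 (Bid) to 1.99 (Pmaip1), and all slide 2 differences lay within 0.57 of 0.

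Taken by slide, the 19 probes had a median absolute log2 difference of 0.83 on slide 1 and 0.087 on slide 2, beside 0.511 and 0.169 for all tested probes. The IEL array of slide 1 was at least 2-fold higher on 4 probes (21.1%, against 11.8% of all tested probes) and at least 2-fold lower on 3 (15.8%, against 13.7%). The 4 came from the genes Bcl2l1, with all of its probes, and Pmaip1, and the 3 were Bcl2 A_52_P438280, Bid and Bad A_52_P614762. On slide 2, 0 probes reached 2-fold in either direction, against 2.47% of all tested probes higher and 0.730% lower. The same 4 and 3 probes were the ones that limma called without IEL replicate 2, where it called 8.55% of all tested probes as higher and 11.0% as lower. It called 0 of the 19, and 0% of all tested probes, without IEL replicate 1, without SPL replicate 1 or without SPL replicate 2. Probes of 1 gene are not replicates of a condition, and the median log2 difference of the 19 was -0.09, beside 0.00 for all tested probes.

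Promoter sequence was read for 9 of the genes, as 15 RefSeq windows on GRCm38.p6 that run from 250 bases before to 50 bases after a gene start. Pmaip1 was not used here. FOXO factors are textbook regulators of Bcl2l11 and Bbc3, so the letters GTAAACA were searched on both strands. They were found in 2 of the 15 windows, 1 of Bcl2l11 and 1 of Bbc3, and in 3.65% of all 32851 windows. The windows that hold a match are shown, with the match in capitals (in the Bbc3 window it reads on the other strand).
Bcl2l11 (chr2:128125788-128126087, plus strand): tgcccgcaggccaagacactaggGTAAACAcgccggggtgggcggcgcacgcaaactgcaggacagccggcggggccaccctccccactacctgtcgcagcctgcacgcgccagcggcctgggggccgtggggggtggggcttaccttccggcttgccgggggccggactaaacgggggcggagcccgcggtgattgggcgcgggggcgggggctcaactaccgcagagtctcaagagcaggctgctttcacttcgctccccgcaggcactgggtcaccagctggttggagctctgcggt
Bbc3 (chr7:16310011-16310310, plus strand): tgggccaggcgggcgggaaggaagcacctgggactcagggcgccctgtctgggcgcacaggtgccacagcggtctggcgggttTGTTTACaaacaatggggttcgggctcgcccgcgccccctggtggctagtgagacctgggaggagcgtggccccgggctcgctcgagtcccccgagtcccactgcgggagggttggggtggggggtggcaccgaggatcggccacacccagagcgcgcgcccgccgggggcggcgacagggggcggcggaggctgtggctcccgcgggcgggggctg
The match begins 227 bases before the gene start in the Bcl2l11 window and 167 bases before it in the Bbc3 window. The STAT letters TTCNNNGAA were in 0 of the 15 windows and in 8.30% of all windows. The GC box GGGCGG was in 10 of the 15, from 7 genes, and in 35.7% of all windows, and the E-box CACGTG in 2 of the 15, of Bax and Bbc3, and in 7.15%. Member windows held 49.3% to 78.0% G and C, beside a median of 52.7% over all windows, and the counts were not matched for this. Windows of 1 gene can overlap, and a match in letters is not a bound site.

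Other genes of the pathway were read on the brightest tested probe of each. Of 16 further BCL2 family genes, 14 were on the array under the names searched and 12 were tested. On both IEL arrays 5 of the 12 were higher and 1 was lower, beside 24.4% and 24.5% of all tested probes, and the median log2 difference was 0.25. Bcl2a1c, of the pro-survival A1 group, read 2.79 and 1.65 in the IELs and 0.78 and 0.02 in the SPLs, and Bcl2a1b read 5.56, 4.33, 3.54 and 2.77. On both, the arrays stood in the same order, with differences of 1.82 ± 0.51 and 1.79 ± 0.54 (limma adjusted p = 0.634 for each). The A1 copies are nearly identical in sequence, so the probes may not tell them apart.

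Bcl2l2, the gene of the pro-survival Bcl-w, read -1.03, -2.04, -2.70 and -3.22, a log2 difference of 1.43 ± 0.45 (limma adjusted p = 0.634). Bcl2a1b, Bcl2a1c and Bcl2l2 differed by 0.80, 0.87 and 0.66 on slide 2, more than any of the 10 members. The lowest were Hrk, a BH3-only gene, at -0.72 ± 0.45, Bcl2l12 at -0.42 ± 0.29 and Bmf, another BH3-only gene, at -0.11 ± 0.26 (limma adjusted p = 0.634, 0.636 and 0.877). Hrk was well above background on 3 of the 4 arrays. In all, 0 of the 12 passed with all arrays, as did 0% of all tested probes.

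Downstream of the mitochondrion, 18 genes of the apoptosome and the caspases had a median log2 difference of 0.02, with 0 passing. On both IEL arrays 5 of the 18 were higher and 3 lower, beside 24.4% and 24.5% of all tested probes. Birc2 stood at 0.58 ± 0.55, with the spot of SPL replicate 2 dropped as an outlier. The lowest were Casp6 at -0.52 ± 0.33, Birc5 at -0.35 ± 0.37 and Cycs, the gene of somatic cytochrome c, at -0.24 ± 0.28.

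Of 8 death receptor genes, 2 were higher and 0 lower on both IEL arrays, beside 24.4% and 24.5% of all tested probes. Their median log2 difference was -0.11. Fasl, the ligand that cytotoxic T cells use to kill through Fas, read 3.82 and 2.92 in the IELs and 1.60 and -0.16 in the SPLs. Its difference of 2.65 ± 0.71 was larger than that of any of the 10 members but did not pass (limma adjusted p = 0.634). Tnfrsf1a, a receptor for tumor necrosis factor, read 4.08, 2.97, 2.40 and 2.34, and it alone of this list passed without IEL replicate 2 (1.71, limma adjusted p = 0.015). Fadd, Tradd and Fas were the lowest, at -0.42 ± 0.36, -0.30 ± 0.28 and -0.30 ± 0.33.

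The 15 genes that carry survival cytokine and stress signals to the family had a median log2 difference of 0.15, with 0 passing. On both IEL arrays 6 of the 15 were higher and 3 lower, beside 24.4% and 24.5% of all tested probes. Il15ra, which presents interleukin 15, read -0.30 and -0.56 in the IELs and -1.03 and -1.73 in the SPLs, a difference of 0.95 ± 0.34 (limma adjusted p = 0.634). Foxo3 stood at 0.93 ± 0.38 and Il2rb, the receptor chain shared by interleukins 2 and 15, at 0.67 ± 0.37. The lowest were the common cytokine receptor chain Il2rg at -0.59 ± 0.37, Il7r, the receptor of interleukin 7, at -0.42 ± 0.31, and the kinase Jak1 at -0.40 ± 0.29. The one gene that passed without IEL replicate 2 was Stat5b, a signal transducer of these cytokines that is named for that reason after its values were seen (1.16, limma adjusted p = 0.035).

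**Figure D4:**
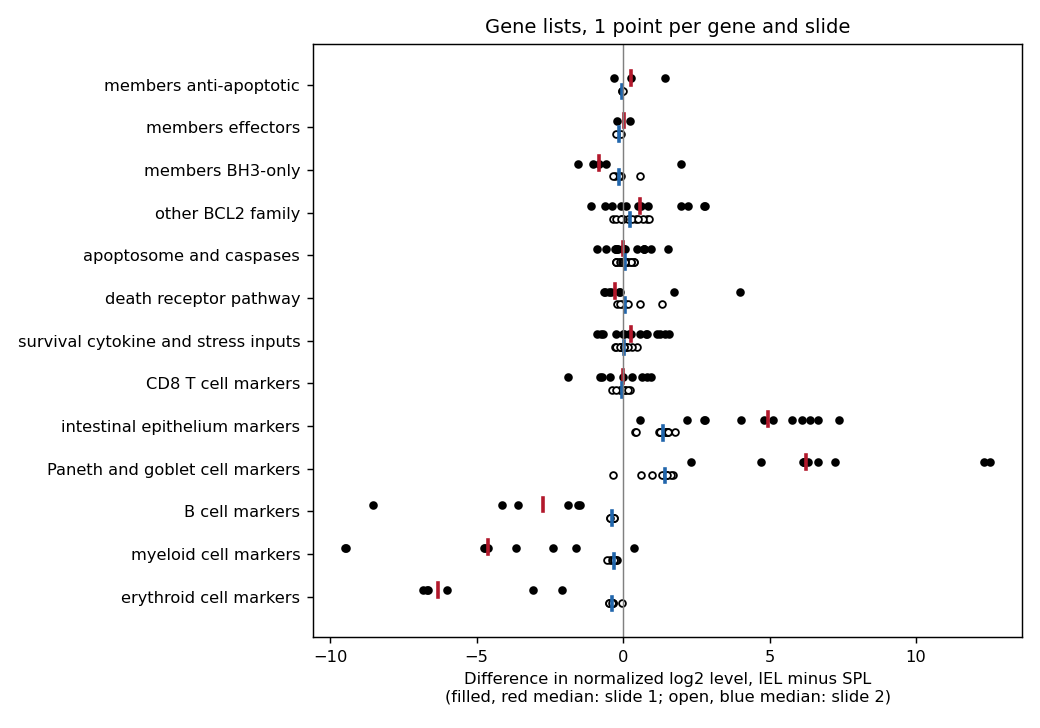
Log2 difference between the IEL and the SPL array of each slide (horizontal axis), with 1 point per gene on its brightest tested probe, filled for slide 1 and open for slide 2, and a bar at the median of each list. On slide 1 the apoptosis lists reached 3.98 (Fasl) and the Paneth markers 12.5 (Defa1), while the B cell, myeloid and erythroid medians were -2.74, -4.62 and -6.33.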

How the data were processed

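Samples were grouped by their labels. The authors deposited scanner files whose processed intensity had an array-fitted background subtracted (Feature Extraction 10.7.3.1 per the file headers and 10.7.1.1 per the labels; the paper names PrimeView chips instead), with no normalization between arrays. They also deposited a table of log2 values, whose equal extremes on every array (0.53 and 18.84) fit quantile normalization; it was used as an alternative.

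Of 43379 non-control spots per array, 98 to 179 carried an outlier mark and were dropped, and repeat spots were averaged. Log2 processed intensity was centred on each array's 75th percentile (312 to 605 units), and 63.6% to 69.6% of probes were well above background. A probe entered the test if it exceeded background throughout at least 1 group, and testing was done with limma 3.58.1 in R 4.3.3, without a block, two-sided, with Benjamini-Hochberg adjustment over all tested probes at 0.05. Only 2 arrays per group limit the precision.

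Text names all members with every probe, and up to 3 highest and 3 lowest genes of each other pathway list. A few of these genes are not reported here. The members and lists were chosen with earlier results of these data known. Alternatives are given in the closing section. Sequences came from the scanner files and from RefSeq windows (GRCm38.p6).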

Additional observations from a re-analysis of the deposited data

How the results depend on the processing

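The number of member probes with both IEL arrays above both SPL arrays was 5, and it was 2 with quantile normalization, with median scaling, with either normexp background correction (offset 50, the second fit leaving out spots over 20 units below background) and with the authors' table. With 1 array left out it ran from 5 to 8. The number below was 7, fell to 3 with both normexp fits and ran from 8 to 10 with 1 array left out. With 1 array left out, the shares of all tested probes also stood higher, at 33.1% to 43.7% above and 34.5% to 42.0% below. The number called higher was 0, 1 with the methods' unpaired test without adjustment (Bak1 A_52_P225207) and 0 to 4 with 1 array left out, and the number called lower was 0, and 0 to 3 with 1 array left out. The causes were not tested.

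The Bcl2 difference was -0.011 without IEL replicate 1 and 0.252 with IEL replicate 2 left out, and changed to -0.21 as the mean of its probes. The Bak1 difference on its brighter probe became -0.0081 with quantile normalization, -0.051 with median scaling, -0.0026 with the 75th percentile taken only over detected probes, -0.014 in the authors' table, -0.090 without IEL replicate 1 and -0.136 without SPL replicate 2, and it reached 0.145 without SPL replicate 1. Of 196 values of single genes under the alternatives, 184 kept direction and side of the threshold, 8 changed sign and 4 passed the threshold, all 4 without IEL replicate 2. Settings that altered only the filter on dim probes, the test, the block or the threshold left each log2 difference as it was. Their values kept direction by construction, so the count of 184 overstates how far direction was tried. Keeping direction did not mean keeping size, as Bcl2l1 on its brightest probe was 0.35 and Bad -0.090 with normexp, and Bad was -0.17 as the mean of its probes.

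Arrays that share a replicate number deviated from their group means with a correlation of -0.025 across probes, so the number was not read as a pairing. With the replicate number as a block, 0 member probes were called higher and 0 lower, and the same held with the slide as a block. With 2 arrays per group, and with IEL replicate 2 close to SPL replicate 1, differences of the size seen on slide 1 did not pass in the fit of all arrays.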
